A study of Mus musculus with 4 samples.

Results

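The cells described here are the CD4 T cells of hypoxic mouse lung, 419 of 44835 kept cells. They were chosen by a gate on UMIs (unique molecular identifiers, each marking 1 captured RNA molecule): at least 2 of the 4 genes Cd3d, Cd3e, Cd3g and Trbc2 detected, at least 1 Cd4 UMI, no Cd8a or Cd8b1 UMI, at most 1 UMI of the endothelial genes Cdh5 and Cldn5 together, and no UMI of the B cell gene Cd79a or the fibroblast gene Col1a2. The lungs came from Vegfr2Y949F mice and from WT mice, both on the C57BL/6J background, 6 to 8 weeks old and exposed to hypoxia for 6 weeks, so that neither genotype has a group kept in normal air here. Vegfr2Y949F mice carry a tyrosine-to-phenylalanine change in VEGF receptor 2, the kinase encoded by Kdr, at a site that binds the adaptor TSAd (encoded by Sh2d2a). Each genotype had 2 libraries, a set A and a set B, and each library held lung cells pooled from 2 mice. What the set letters stand for is not stated, nor is the sex of the mice, and p-values between genotypes measure only the spread between 2 pools per genotype.

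CD4 T cells recognise peptides on MHC class II and direct other immune cells through cytokines and contact. Naive cells circulate with the chemokine receptor Ccr7 and the transcription factor Lef1, whereas antigen-experienced cells lose these and gain genes of migration, retention in tissue and effector function. Regulatory T cells, marked by Foxp3, restrain the others, and in the lung under chronic hypoxia CD4 T cells are studied as part of the perivascular inflammation that goes with vascular remodelling.

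The gate gave 81 and 155 CD4 T cells in the Vegfr2Y949F set A and set B libraries, against 11 and 172 in the WT set A and set B libraries. The WT set A library is therefore the thinnest by far, and 1 UMI there stands for 15.8 CPM (counts per 1000000 UMIs of the summed cells), against 0.949 CPM in WT set B. Summed over CD4 T cells, the libraries held 457871 and 1037296 UMIs in Vegfr2Y949F and 63439 and 1054243 UMIs in WT. The median CD4 T cell had 5127 to 5901 UMIs, close to the 4536 to 5742 of all kept cells. No cell barcode of a CD4 T cell was shared between libraries, and over all kept cells any pair of libraries shared 28 to 54. The gate rested on few molecules in many cells: 268 of the 419 had exactly 1 Cd4 UMI and 56 had the minimum of 2 CD3 or T cell receptor genes. Just outside it lay 18 cells with 1 such gene and 90 cells that failed only on Cdh5, Cldn5, Cd79a or Col1a2, 12 of them with 2 UMIs of Cdh5 and Cldn5. A further 630 T cells had neither Cd4 nor Cd8 UMIs and were not assigned, and 249 were CD8 T cells by the same gate with Cd8a or Cd8b1 in place of Cd4.

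The label was checked on genes that the gate did not use. Lef1 and Il7r, the receptor chain for the survival cytokine IL-7, were detected in 82.1% and 81.4% of CD4 T cells, against 1.41% and 0.64% of endothelial cells of the same libraries, whose median depth of 4656.5 to 5936 UMIs overlapped that of the CD4 T cells. Trac, the constant region of the T cell receptor alpha chain, was detected in 70.2% of CD4 T cells and 0.177% of endothelial cells. These genes mark T cells and did not separate CD4 from CD8 T cells, with log2 fold changes of -0.15 for Lef1, -0.27 for Il7r and 0.41 for Trac, none of them called. Of the helper markers outside the gate, Cd40lg (CD40 ligand) had 10.9, 6.75, 126 and 6.64 CPM in CD4 T cells of Vegfr2Y949F set A, Vegfr2Y949F set B, WT set A and WT set B, against 0 CPM in CD8 T cells of all 4 libraries. It was found in 17 of 419 CD4 T cells, and in WT set A all 8 of its UMIs came from 1 cell. Zbtb7b, the transcription factor of CD4 lineage choice, was found in 3.10% of CD4 T cells and 9.18% of endothelial cells. The defining genes of gamma delta and NKT cells summed to 6.75 to 15.8 CPM per library and those of type 2 innate lymphoid cells to 63.3 to 189 CPM, whereas the T cell list summed to 2367 to 3294 CPM without the gate genes. Transcripts of other lung cells were present at levels that differed between libraries. The neutrophil list summed to 1151 and 13.5 CPM in Vegfr2Y949F and 31.5 and 32.3 CPM in WT, and the myeloid list to 871 and 246 CPM in Vegfr2Y949F and 15.8 and 1105 CPM in WT. Scgb1a1, the secretory protein of club cells, was detected in 91.4% of CD4 T cells and 90.3% of endothelial cells.

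The largest group of CD4 T cells, described with the clusters further on, was led by heat shock genes, which encode chaperones and are switched on by heat shock factor through heat shock elements. The promoters of 3 of them are shown because they were among the 10 leading genes of that cluster. The sequences are RefSeq windows of 250 bases before to 50 after the gene start (GRCm38.p6), 5′ to 3′ on the gene's strand, with each match to GAANNTTC or TTCNNGAA, the paired core of the heat shock element and its own reverse complement, in capitals. Overlapping matches run together. The windows are chr17:34972107-34972406 on the minus strand for Hspa1a (inducible HSP70), chr5:149636287-149636586 on the minus strand for Hsph1 (HSP110) and chr1:55087898-55088197 on the plus strand for Hspe1 (mitochondrial HSP10).
Hspa1a: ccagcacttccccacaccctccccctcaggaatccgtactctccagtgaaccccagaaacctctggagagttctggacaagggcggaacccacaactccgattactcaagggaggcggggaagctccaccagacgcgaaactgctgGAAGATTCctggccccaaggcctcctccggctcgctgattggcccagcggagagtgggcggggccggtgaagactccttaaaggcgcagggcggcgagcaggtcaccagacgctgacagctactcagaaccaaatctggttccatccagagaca
Hsph1: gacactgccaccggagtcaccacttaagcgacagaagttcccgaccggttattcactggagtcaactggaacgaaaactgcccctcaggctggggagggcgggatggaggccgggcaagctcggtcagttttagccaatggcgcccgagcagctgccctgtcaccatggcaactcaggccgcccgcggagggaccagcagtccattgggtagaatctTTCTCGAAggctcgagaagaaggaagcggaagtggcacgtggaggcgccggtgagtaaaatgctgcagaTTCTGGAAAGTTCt
Hspe1: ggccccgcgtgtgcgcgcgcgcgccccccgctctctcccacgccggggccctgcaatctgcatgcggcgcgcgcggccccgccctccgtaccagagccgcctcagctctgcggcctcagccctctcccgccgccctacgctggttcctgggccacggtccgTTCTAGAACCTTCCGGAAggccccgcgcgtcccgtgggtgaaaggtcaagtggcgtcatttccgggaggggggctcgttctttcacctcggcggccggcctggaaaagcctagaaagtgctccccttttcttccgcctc
The Hspa1a window held 1 match and those of Hsph1 and Hspe1 held 3 each. Of 27025 genes with a promoter in the table, 15.1% held at least 1 match in their first window, and of the 11 genes of the heat shock list 8 were in the table and 6 of these held one. The Hspa1a and Hspa1b windows differ at 4 of 300 positions, and the transcripts of this pair are so alike that reads may be split between them. A match describes these letters and does not show that a factor bound there.

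The share of CD4 T cells varied more between libraries of 1 genotype than between genotypes. CD4 T cells were 0.651% of kept cells in Vegfr2Y949F set A (exact 95% interval 0.517% to 0.809%) and 1.53% in Vegfr2Y949F set B (1.30% to 1.79%), against 0.0938% in WT set A (0.0469% to 0.168%) and 1.63% in WT set B (1.40% to 1.89%). The mean was 1.09% ± 0.623 in Vegfr2Y949F and 0.861% ± 1.09 in WT (SD, n = 2 each), and the two-sided exact permutation p was 1. The genotypes overlapped, the difference was 0.557 percentage points in set A and -0.0961 in set B, and without Vegfr2Y949F set B or WT set A the mean difference turned negative, at -0.21 and -0.537 percentage points. Intervals cover counting error only, and 2 against 2 libraries cannot give a p below 0.3333.

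**Figure D1:**
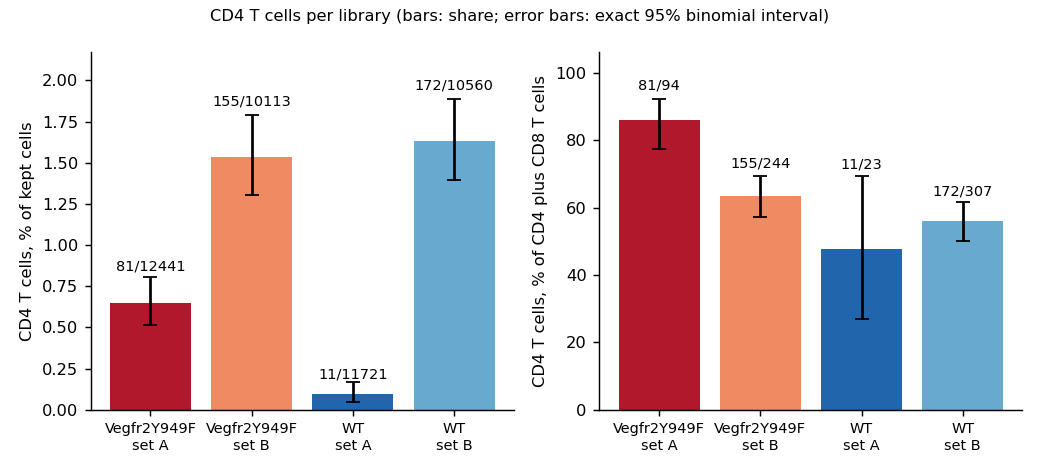
Share of CD4 T cells per library, as % of kept cells (left) and as % of CD4 plus CD8 T cells (right). Bars are the share, error bars the exact 95% binomial interval and the numbers above them the cells counted. In the left panel WT set A stands at 0.0938% while the other libraries lie between 0.651% and 1.63%.

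Among T cells assigned to either type, CD4 T cells were the larger part in every library but WT set A. They made up 86.2% of CD4 plus CD8 T cells in Vegfr2Y949F set A (81 of 94) and 63.5% in Vegfr2Y949F set B (155 of 244), against 47.8% in WT set A (11 of 23) and 56.0% in WT set B (172 of 307). Both Vegfr2Y949F libraries stood above both WT libraries, by 38.3 percentage points in set A and 7.5 in set B. The means were 74.8% ± 16.0 in Vegfr2Y949F and 51.9% ± 5.80 in WT (SD, n = 2 each), a difference of 22.9 percentage points with a two-sided exact permutation p of 0.3333, the smallest this design allows. The WT set A interval, 26.8% to 69.4%, holds the values of both set B libraries. Taken over all cells with at least 2 CD3 or T cell receptor genes, CD4 T cells were 28.0% and 30.4% in Vegfr2Y949F and 15.5% and 23.8% in WT.

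CD4 T cells were then set against CD8 T cells of the same libraries, to show which genes besides the gate's separated them. Of 5958 genes tested with edgeR's quasi-likelihood test with library as a block, 83 were higher in CD4 T cells (1.39% of those tested) and 65 were lower (1.09%) at an adjusted p under 0.05, and 651 had an unadjusted p under 0.05. The genes of the gate were left out of these calls. Of the 8 costimulation and checkpoint genes tested 4 were higher in CD4 T cells and 1 was lower, and of the 8 tested genes of the cytotoxic granule list 7 were lower. Of the 3 CD4 helper markers tested outside the gate, Icos was higher and Lef1 and Il7r were not called. Leaving out the library block cut the calls to 27 (18 higher, 9 lower), DESeq2 made 67 and leaving out WT set B gave 56.

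Among the costimulatory receptors, Tnfrsf4 (OX40; chromosome 4, 156013843 to 156016612 in mm10) had 37.1, 181, 221 and 136 CPM in CD4 T cells of Vegfr2Y949F set A, Vegfr2Y949F set B, WT set A and WT set B, against 0, 5.85, 0 and 4.56 CPM in CD8 T cells of the same libraries. Every CD4 value lay above every CD8 value, and the log2 fold change was 4.95 (SE 0.37, adjusted p = 1.44e-10). Icos, a CD28 relative needed for help to B cells, was higher in CD4 T cells in 4 of 4 libraries (log2 fold change 1.26, adjusted p = 0.000422). Cd28 itself was higher by 0.80 (adjusted p = 0.00349) and Ctla4, the inhibitory receptor that competes with it, by 1.23 (adjusted p = 0.00444). Of 16 genes of costimulation and checkpoints, 8 passed the filter on low counts, 4 were higher in CD4 T cells and 1, the CD8 and NK cell receptor Cd226, was lower. Tnfsf8 (CD30 ligand), counted with the secreted cytokines, had 100.5, 114, 78.8 and 62.6 CPM in CD4 T cells, against 45.5, 21.1, 15.8 and 14.8 CPM in CD8 T cells (log2 fold change 2.11, adjusted p = 2.14e-05).

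Some lineage transcription factors were higher as well. Maf, which drives IL-4, IL-10 and IL-21 programmes in helper cells, had 135, 199, 300 and 148 CPM in CD4 T cells, against 11.4, 31.6, 15.8 and 27.3 CPM in CD8 T cells. The groups did not overlap, and the log2 fold change was 2.67 (SE 0.26, adjusted p = 1.88e-08). Gata3, the factor of type 2 helper cells, had 43.7, 35.7, 173 and 46.5 CPM, against 11.4, 10.5, 15.8 and 10.2 CPM in CD8 T cells (log2 fold change 2.09, adjusted p = 0.000562). Rora, Tox and Runx1 were also called, so 5 of the 21 lineage transcription factors that passed the filter were higher and none lower, with a median log2 fold change of 0.24 over the 21, against 0.00 over all genes tested. Lef1 and Il7r did not separate the types: their log2 fold changes were -0.15 and -0.27, and Lef1 was higher in CD4 T cells in 2 of 4 libraries.

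Other genes higher in CD4 T cells came from outside these lists or from several of them. Tbc1d4, a Rab GTPase regulator (chromosome 14, 101442360 to 101609191), had 186, 140, 300 and 108 CPM in CD4 T cells, against 34.1, 12.9, 31.6 and 12.5 CPM in CD8 T cells. That is a log2 fold change of 3.15 (SE 0.28, adjusted p = 6.97e-09) with no overlap between the types. Cd5, which dampens T cell receptor signals, was higher by 2.57 and Cd6, its relative, by 1.28. Trat1, an adaptor that stabilises the T cell receptor complex, was higher by 2.79. Further genes higher in every library were the sialyltransferase St8sia6 (2.92), the presenilin Psen2 (2.82), Tmem64 (2.06), the calcium-binding protein Tesc (2.11), Smco4 (2.13) and the early endosome tether Eea1 (1.93). Hif1a, the oxygen-regulated subunit of hypoxia-inducible factor 1, had 282, 283, 189 and 203 CPM in CD4 T cells, against 137, 98.3, 63.2 and 93.4 CPM in CD8 T cells. Its lowest CD4 value lay above its highest CD8 value (log2 fold change 1.29, SE 0.19, adjusted p = 4.03e-05), yet it was the one call among the 19 genes of hypoxia and glycolysis that passed the filter, whose median log2 fold change was -0.09.

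The cytotoxic granule list, which also holds the receptor chain Klrd1 and the chemokine Ccl5, made up 7 of the 65 lower calls. Klrd1 (CD94, an NK cell receptor chain) had 8.74, 6.75, 15.8 and 15.2 CPM in CD4 T cells, against 250.4, 217, 363 and 171 CPM in CD8 T cells. Every CD4 value lay below every CD8 value, and the log2 fold change was -4.26 (SE 0.29, adjusted p = 3.24e-11). Nkg7 and Ctsw, both of cytotoxic granules, fell by 2.35 and 2.39 on the log2 scale, and Gzma fell by 4.87 although it was at 0 in Vegfr2Y949F set A CD4 T cells and in WT set A CD8 T cells. Of the 15 genes of this list 8 passed the filter and 7 were lower, with a median log2 fold change of -2.76 over the 8. Gzmb was among the 7 (log2 fold change -1.44), although it was lower in 2 libraries and higher in 1. Ccl5 had 10.9, 296, 315 and 58.8 CPM in CD4 T cells, against 785, 1613, 316 and 894 CPM in CD8 T cells, so WT set A was level while the other libraries differed (log2 fold change -3.12, adjusted p = 2.2e-07). The WT set A value in CD4 T cells came from 1 cell, which held all 20 Ccl5 UMIs. Ccl4 fell by 3.84. Outside the lists, Bend4 had 6.55, 4.82, 0 and 4.74 CPM in CD4 T cells, against 171, 121, 111 and 117 CPM in CD8 T cells (log2 fold change -4.63, adjusted p = 9.25e-11). Fam241a (-2.45) and Ly6c2 (-4.01), a surface protein of memory CD8 T cells, were lower in 4 of 4 libraries.

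**Figure D2:**
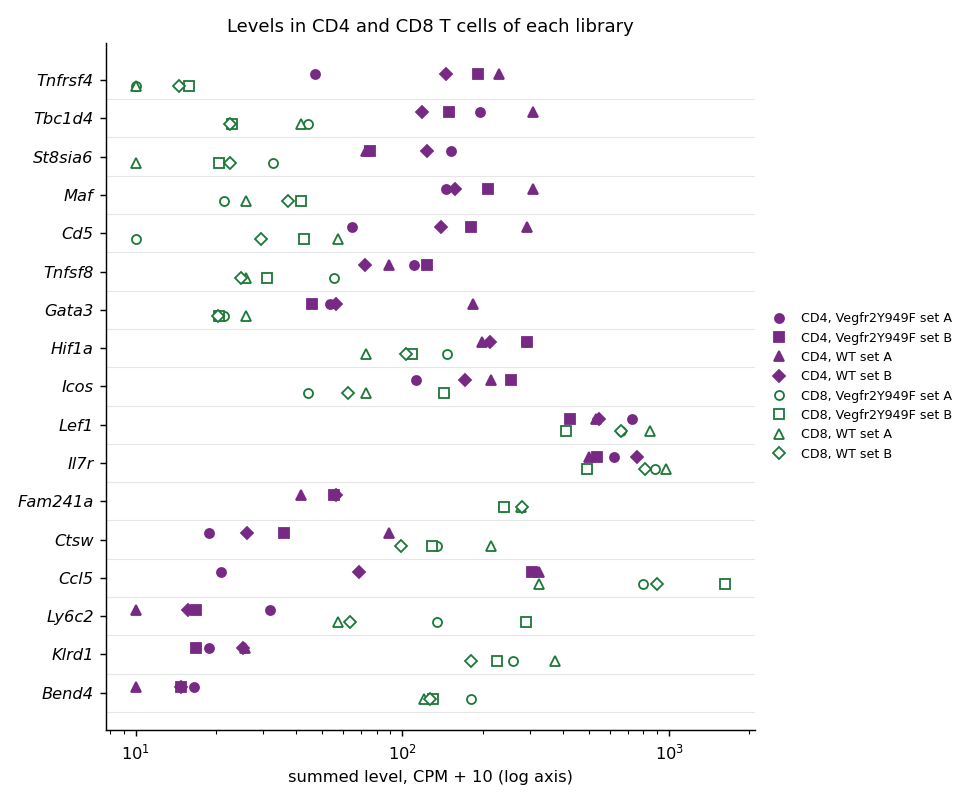
Summed level of 17 genes in CD4 T cells (filled symbols, upper row of each gene) and CD8 T cells (open symbols, lower row), 1 symbol per library, on a log axis of CPM plus 10. Tnfrsf4 to Hif1a lie to the right in CD4 T cells, Lef1 and Il7r overlap, and Klrd1 and Bend4 lie to the right in CD8 T cells.

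Some of the calls were of genes of other lung cells. Sftpc, the surfactant protein of alveolar type 2 cells, had 52.4, 47.2, 47.3 and 4702 CPM in CD4 T cells, against 34.1, 25.8, 15.8 and 122 CPM in CD8 T cells. In WT set B, 1 cell with 42283 UMIs, marked as a doublet by its Scrublet score, held 4863 of the 4957 Sftpc UMIs, and without cells that had 3 or more UMIs of other lineages the log2 fold change was -0.22 in place of 4.04. S100a8, of neutrophils, had 304, 2.89, 0 and 6.64 CPM in CD4 T cells, against 2640, 3.51, 348 and 120 CPM in CD8 T cells, and Cxcl2, Ccl3, Acod1 and Il1b were called lower too. The neutrophil list summed to 6282, 9.37, 1311 and 331 CPM in CD8 T cells, of which the set A sums hold 13 and 12 cells, and its part in these calls was not tested. Ager, of alveolar type 1 cells, was higher in 4 of 4 libraries (log2 fold change 1.89) and was no longer called with doublets removed. Lyz2, of myeloid cells, was higher by 1.99 and lower by 2.17 with doublets removed.

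Without both set A libraries, a choice made after seeing the data, 113 genes were called, and 89 of these were among the 148 called over 4 libraries. Of the 56 genes named here by rule 17 were called in the same direction in every alternative that tested them. These 17 include Tnfrsf4, Tbc1d4, Maf, Cd5, Tnfsf8, Hif1a, Trat1, Psen2, Klrd1, Bend4, Ctsw, Ly6c2 and Ccl4. Ccl4 was tested in 7 alternatives and the other genes listed in 13. It had 7, 5, 0 and 4 UMIs in CD4 T cells of Vegfr2Y949F set A, Vegfr2Y949F set B, WT set A and WT set B. In CD8 T cells of the same libraries it had 8, 18, 0 and 159, so that its call leans on WT set B.

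Genotype was the study's own contrast, and in CD4 T cells few genes differed. Of 6470 genes tested over the 4 sums, 2 were called (0.0309%), Plac8 and Lgals3, both higher in Vegfr2Y949F, and 67 had an unadjusted p under 0.05. Plac8 (chromosome 5, 100553725 to 100572245), which encodes a small cysteine-rich protein of leukocytes, had 80.8 and 276 CPM in Vegfr2Y949F, against 0 and 1.90 CPM in WT. Both Vegfr2Y949F libraries lay above both WT libraries, with 323 UMIs against 2, a ratio of 121 with a counting interval of 33.2 to 1001 (edgeR adjusted p = 0.00523). That interval treats pooled UMIs as independent and covers neither the spread between cells nor that between libraries. Few cells carried the gene. Plac8 was detected in 6 of 81 and 23 of 155 CD4 T cells of Vegfr2Y949F and in 0 of 11 and 2 of 172 of WT, and 1 cell of Vegfr2Y949F set A held 31 of that library's 37 UMIs. Thinned to 1000 UMIs per cell, the shares were 2.47% and 7.74% in Vegfr2Y949F and 0% and 0.581% in WT, with no count in WT set A allowing up to 27.3%. The unthinned shares of 7.41% and 14.8% in Vegfr2Y949F were below the 18.7% of endothelial cells.

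Lgals3 (chromosome 14, 47367751 to 47386160), which encodes galectin-3, a sugar-binding protein abundant in macrophages and induced in activated T cells, had 179 and 156 CPM in Vegfr2Y949F, against 15.8 and 19.9 CPM in WT. The genotypes did not overlap, and the log2 fold change was 3.05 (SE 0.50, edgeR adjusted p = 0.0296). It was detected in 12 of 81 and 19 of 155 CD4 T cells of Vegfr2Y949F, against 1 of 11 and 13 of 172 of WT. In Vegfr2Y949F set A, 54 of 82 Lgals3 UMIs came from the same cell that held most Plac8, a cell marked as a doublet with 189 Lyz2 UMIs. With doublets removed no gene was called, 46 had an unadjusted p under 0.05, Plac8 no longer passed the filter and Lgals3 had an adjusted p of 0.49. Without WT set B no gene was called either (Plac8 adjusted p = 0.56), and with the set letter as a block Plac8 alone was called (adjusted p = 0.0472; Lgals3 0.51). Without cells holding 3 or more UMIs of other lineages, Lgals3 was not called (log2 fold change 2.44, edgeR adjusted p = 0.0612) and Plac8 no longer passed the filter. The myeloid list summed to 871 and 246 CPM in Vegfr2Y949F and 15.8 and 1105 CPM in WT, where 1 cell of WT set B marked as a doublet held 1100 of that library's 1136 Lyz2 UMIs. Its members Tyrobp, with 210 and 22.2 CPM in Vegfr2Y949F and 0 and 5.69 CPM in WT, and Fcer1g, with 103 and 15.4 CPM in Vegfr2Y949F and 0 and 2.85 CPM in WT, stood higher in both Vegfr2Y949F libraries, and neither was called (edgeR adjusted p = 0.474 and 0.573).

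**Figure D3:**
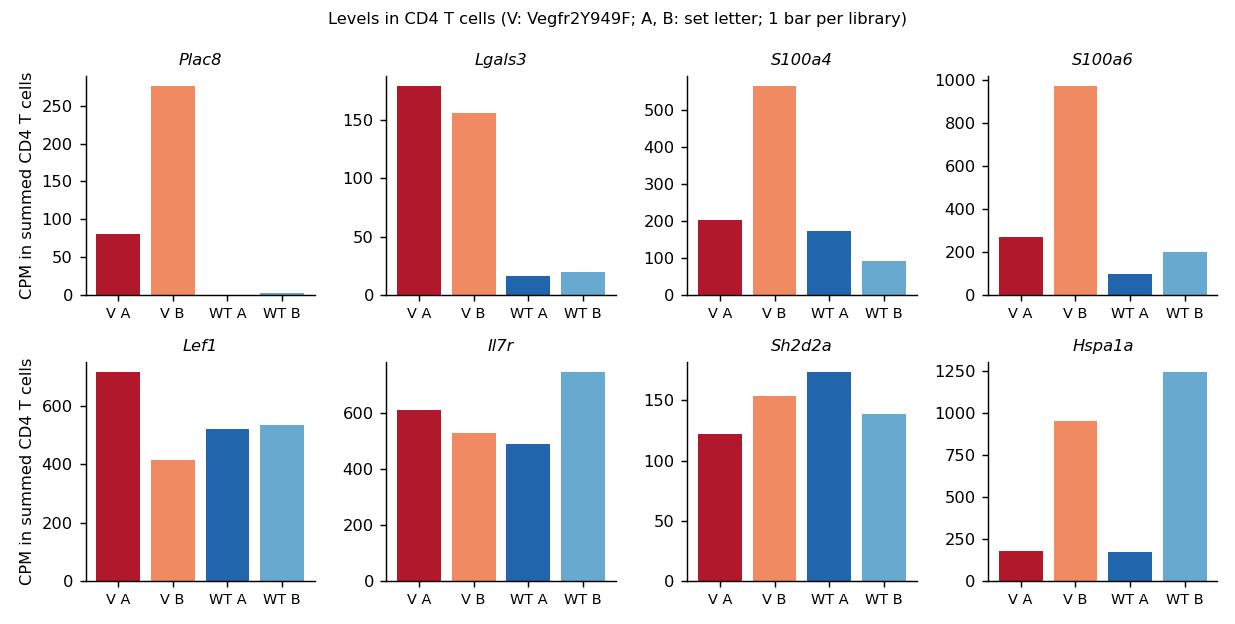
Level of 8 genes in summed CD4 T cells, in CPM, 1 bar per library (V, Vegfr2Y949F; A and B, set letter). Plac8 and Lgals3 are higher in both Vegfr2Y949F libraries, S100a4 and S100a6 stand out in Vegfr2Y949F set B, and Hspa1a is higher in both set B libraries (953 CPM in Vegfr2Y949F and 1244 CPM in WT).

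Genes of the VEGF receptor and its adaptor TSAd were examined because the mutation lies in that pathway. None of those tested was called, against 0.0309% of all genes tested. Kdr and Vegfb did not pass the filter on low counts and were not tested. Kdr, the mutated receptor, was at 6.55 and 0 CPM in Vegfr2Y949F and 0 and 2.85 CPM in WT, 6 UMIs in 6 cells, against detection in 62.2% of endothelial cells. Sh2d2a (chromosome 3, 87846755 to 87855722), whose product TSAd was first described in T cells, was by contrast detected in 42.2% of CD4 T cells and 0.269% of endothelial cells. It had 122 and 153 CPM in Vegfr2Y949F, against 173 and 138 CPM in WT, and the log2 fold change was -0.10 (SE 0.40, adjusted p = 1). Vegfa, the ligand, had 72.1 and 27.0 CPM in Vegfr2Y949F and 15.8 and 25.6 CPM in WT (log2 fold change 0.90, SE 0.58, adjusted p = 1). The share of CD4 T cells with a Vegfa UMI, 15.04%, was below the 74.2% of endothelial cells. Nrp1, a co-receptor for VEGF, had 15.3 and 16.4 CPM in Vegfr2Y949F and 0 and 11.4 CPM in WT, and Vegfb was at or under 4.82 CPM in all 4 libraries.

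No member of any of the 36 gene lists was called between genotypes. Over all genes 2 of 6470 tested (0.0309%) were called, so the lack of calls says little about these lists. Naive and central memory genes had a median log2 fold change of 0.13 over 9 genes, against 0.05 over all genes tested. Lef1 had 716 and 416 CPM in Vegfr2Y949F and 520 and 535 CPM in WT (0.13, SE 0.38), and Il7r 612 and 528 CPM in Vegfr2Y949F and 489 and 747 CPM in WT (-0.14, SE 0.38), so that both genes overlapped between genotypes. T cell receptor signalling genes had a median of -0.09 over 20 genes, costimulation and checkpoint genes -0.23 over 11 and lineage transcription factors -0.01 over 21. Genes of hypoxia and glycolysis had a median of 0.12 over 19, with 14 positive, against 3549 positive of all 6470 genes tested. Interferon response genes had a median of 0.05 over 21. MHC class I genes, at 8654 CPM in the highest sum, had a median of -0.03 over 11.

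Effector and memory genes gave the largest median among the lists with 9 or more tested members, 0.81 with 6 of 9 positive, and the set B libraries showed it more than set A. Over all genes tested 3549 of 6470 were positive. Other lists were more one-sided in sign. Of the cell cycle genes 9 of 10 were positive. Negative were 10 of 11 costimulation and checkpoint genes, 14 of 18 immediate early genes and 9 of 11 heat shock genes. S100a4, a calcium-binding protein of motile effector cells, had 203 and 564 CPM in Vegfr2Y949F, against 173 and 92.0 CPM in WT (log2 fold change 1.76, SE 0.49, unadjusted p = 0.00218, adjusted p = 1). S100a6 had 271 and 971 CPM in Vegfr2Y949F, against 94.6 and 201 CPM in WT (1.89, SE 0.53, unadjusted p = 0.0021, adjusted p = 1). In both genes the 2 Vegfr2Y949F libraries lay above the 2 WT libraries, and neither passed the adjusted threshold. For S100a4, 1 of the 9 cells with a UMI in Vegfr2Y949F set A held 45 of 93 UMIs, and WT set A had 11 UMIs. The order of the set A libraries in S100a4 thus leans on 1 cell. For S100a6, 1 cell of Vegfr2Y949F set B held 245 of 1007 UMIs. Lgals1 had 122 and 921 CPM in Vegfr2Y949F, against 268 and 260 CPM in WT, so Vegfr2Y949F set A was the lowest of the 4. The median of the list was -0.09 in set A and 0.96 in set B on the log2(CPM + 10) scale. The cytotoxic granule list split further, with medians of -2.05 in set A and 1.93 in set B over 7 genes. The set A median is the ratio of Gzma, which had 0 UMIs in Vegfr2Y949F set A and 2 in WT set A. In WT set A, Ctsw and Nkg7 had 5 UMIs each, Fasl 3 and Klrd1 1, so the set A median rests on few molecules. Ccl5 had 10.9 and 296 CPM in Vegfr2Y949F, against 315 and 58.8 CPM in WT, lower in Vegfr2Y949F in set A and higher in set B. All 20 Ccl5 UMIs of WT set A came from 1 cell, and 1 cell of Vegfr2Y949F set B held 127 of 307. Gzmb had 4.37 and 140 CPM in Vegfr2Y949F, against 0 and 19.9 CPM in WT, and so was not lower in set A. In set B, 66 of 145 Gzmb UMIs of the Vegfr2Y949F library came from 1 cell.

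**Figure D4:**
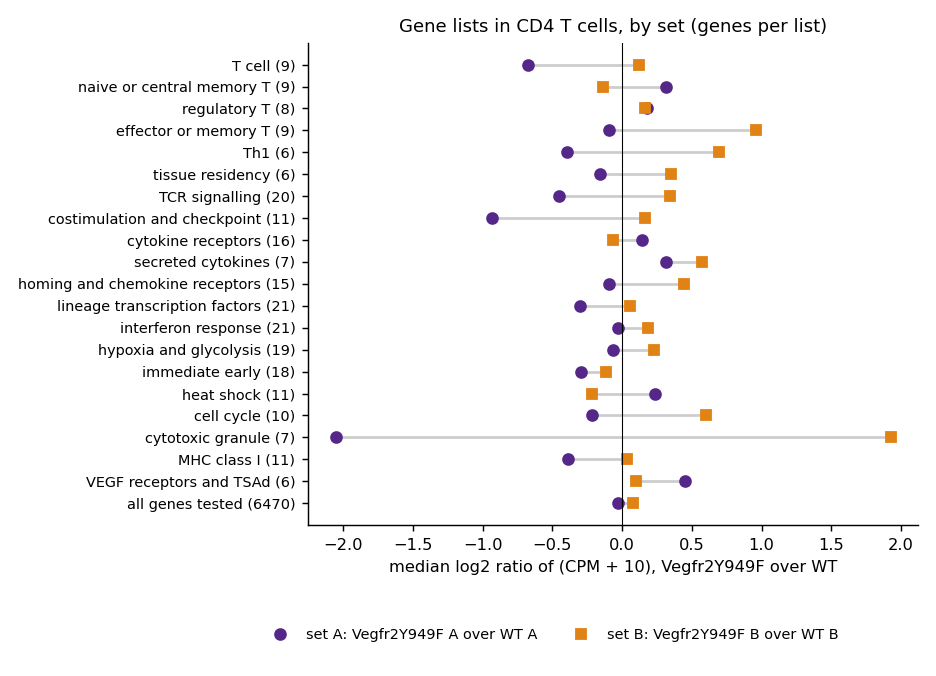
Median log2 ratio of Vegfr2Y949F over WT in CD4 T cells for each list with at least 6 tested genes (number of genes in parentheses), on CPM plus 10, for set A (circles) and set B (squares). Medians of the sets lie on opposite sides of 0 for most lists, and the cytotoxic granule list stands at -2.05 in set A and 1.93 in set B. The set A value of that list is the ratio of Gzma, with 0 UMIs in Vegfr2Y949F set A and 2 in WT set A.

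Foxp3, the factor of regulatory T cells, was detected in 20 of 419 CD4 T cells, and at this depth a cell without a UMI may still express it. A Foxp3 UMI was found in 2 of 81 and 7 of 155 CD4 T cells of Vegfr2Y949F (2.47% and 4.52%), against 0 of 11 and 11 of 172 of WT (0%, which allows up to 27.3%, and 6.40%). Endothelial cells had one in 0.0247%. Thinned to 1000 UMIs per cell, the shares were 1.23% and 2.58% in Vegfr2Y949F and 0% and 0.581% in WT. The order of the set B libraries was thus opposite in thinned and unthinned cells, and no order is read from them (two-sided exact permutation p = 0.3333 thinned and p = 1 unthinned). In level, Foxp3 had 15.3 and 13.5 CPM in Vegfr2Y949F and 0 and 30.4 CPM in WT, and its log2 fold change was -0.91 (SE 0.64, adjusted p = 1). Lists of other helper fates differed in level. The Th1 list summed to 260 and 604 CPM in Vegfr2Y949F and 441 and 344 CPM in WT, and the follicular helper list to 153 and 274 CPM in Vegfr2Y949F and 252 and 176 CPM in WT. None of the 7 genes of Th17 cells passed the filter, and their sum was 8.74 and 4.82 CPM in Vegfr2Y949F and 0 and 32.3 CPM in WT. Of the type 2 helper genes Gata3 and Il1rl1 passed, whereas Il4, Il5, Il13, Ccr4 and Ccr8 did not.

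Within the 419 CD4 T cells, clustering gave 5 groups. They are described without a test, since their genes defined them. Cluster 0, with 139 cells, was led by Hsph1, Hspa1a and Hspa1b, whose promoters were shown or named above, and Hsp90aa1, Hspe1 and the chaperone partner Cacybp. Each of the 9 naive and central memory markers had a UMI in 20% or more of these cells, but as stress genes led it, it was left unnamed. Hspa1a reached 1870 CPM in cluster 0, against 202 CPM in cluster 1 and 685 CPM in cluster 2. Cluster 1, with 119 cells, was naive or central memory-like: Igfbp4 (198 CPM) and Dapl1 (104 CPM) were among its 10 leading genes and 9 of 9 naive markers were detected, with Lef1 at 706 CPM. Its myeloid and neutrophil lists summed to 896 and 750 CPM, against 55.7 and 32.2 CPM in cluster 0. No member of either list had a UMI in 20% or more of its cells. The cell with most Lyz2 UMIs in each Vegfr2Y949F library, marked as a doublet, lay in cluster 1.

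Cluster 2, with 96 cells, was led by Tnfsf8 (311 CPM), Ikzf2 (328 CPM), Rgs1 (1195 CPM), Nt5e, Eea1 and Smco4, with Rora at 682 CPM and Maf at 503 CPM. Of the effector or memory markers 8 of 9 were detected and of the regulatory markers 4 of 8. None of the effector or memory markers was among its 10 leading genes, which held the regulatory marker Ikzf2 and the tissue residency marker Rgs1, so it was left unnamed. Ctla4 had a UMI in 59.4% and Tnfrsf18 in 74.0% of its cells, whereas Lef1 was at 197 CPM and Igfbp4 at 6.73 CPM. Foxp3 was at 63.9 CPM there and at 2.48 to 20.2 CPM in the other clusters, and Tnfsf8, Eea1, Smco4 and Maf were also among the genes higher in CD4 than in CD8 T cells. Cluster 3, with 41 cells, was led by genes of fibroblasts and vessel walls (Mfge8, Inmt, Sparcl1, Bgn, Mgp at 498 CPM) and cluster 4, with 24 cells, by Sftpc, the division genes Pclaf, Birc5 and Mki67 (374 CPM) and Gzmb (474 CPM). Both were left unnamed, and 9.76% and 20.8% of their cells were marked as doublets, against 0%, 4.20% and 1.04% in clusters 0, 1 and 2. Sftpc stood at 16418 CPM in cluster 4 and was detected in 37.5% of its cells. That cluster holds the WT set B cell, marked as a doublet, with 4863 of the 4957 Sftpc UMIs of its library. The Sftpc level of cluster 4 thus leans on 1 cell.

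The clusters were spread unevenly over libraries. Cluster 0 held 9.88% and 33.5% of CD4 T cells in Vegfr2Y949F set A and set B, against 18.2% and 44.8% in WT set A and set B, so it was larger in both set B libraries. In the CD4 sums, Hspa1a had 177 and 953 CPM in Vegfr2Y949F and 173 and 1244 CPM in WT, and in CD8 T cells 125 and 959 CPM in Vegfr2Y949F and 126 and 1140 CPM in WT, the same order by set in both cell types. Between genotypes its log2 fold change in CD4 T cells was -0.47 (SE 0.66, adjusted p = 1). The naive or central memory-like cluster 1 held 45.7% and 20.6% in Vegfr2Y949F and 45.5% and 26.2% in WT, larger in set A. Naive markers were not particular to it. Their list summed to 3748, 4136 and 3857 CPM in clusters 0, 1 and 3, against 2238 and 1891 CPM in clusters 2 and 4. The share of cluster 1 is therefore not the share of all cells with naive markers. Cluster 2 held 9.88% and 32.9% in Vegfr2Y949F and 36.4% and 19.2% in WT, where 36.4% is 4 of 11 cells. Cluster 3 held 30.9% of Vegfr2Y949F set A and 0% to 5.16% of the other libraries.

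**Figure D5:**
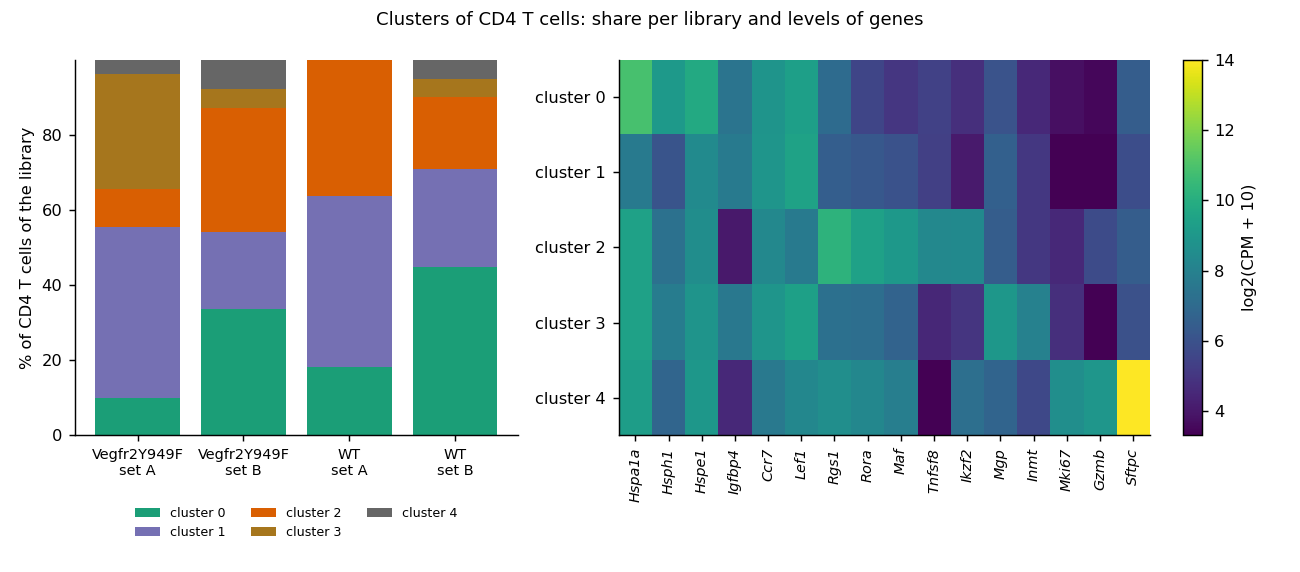
Clusters of CD4 T cells. Left, share of each cluster in the CD4 T cells of each library, in %. Right, level of marker and leading genes in each cluster as log2(CPM + 10), with heat shock genes highest in cluster 0, Rgs1, Rora, Maf and Tnfsf8 in cluster 2 (Rgs1 at 1195 CPM) and Sftpc in cluster 4.

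Whether the genotype difference in CD4 T cells differed from that in CD8 T cells was tested as an interaction. Of 7390 genes 23 were called (0.311%), 17 with a higher log2 ratio of Vegfr2Y949F over WT in CD4 than in CD8 T cells and 6 with a lower one. The 17 include the myeloid and neutrophil list members Tyrobp, Fcer1g, Lyz2 and S100a9. The largest interaction was that of Chil3 (10.4, SE 0.89, edgeR adjusted p = 1.14e-27). In Vegfr2Y949F set B, 60 of its 64 UMIs in CD4 T cells came from 1 cell marked as a doublet. In WT set B, CD8 T cells held 264 Chil3 UMIs and CD4 T cells 9. Without WT set B its interaction was -0.11. Plac8 had an interaction of 4.29 on the log2 scale (SE 0.75, edgeR adjusted p = 9.02e-06): against the CD4 values above, CD8 T cells had 56.9 and 458 CPM in Vegfr2Y949F and 174 and 49.0 CPM in WT, so the genotypes overlapped there. Lgals3 had an interaction of 2.26 (SE 0.48, adjusted p = 0.00159), with 91.0 and 302 CPM in CD8 T cells of Vegfr2Y949F and 31.6 and 141 CPM of WT. The division gene Stmn1 had an interaction of -1.71 (adjusted p = 0.0164), with 63.3 and 195 CPM in CD4 T cells of Vegfr2Y949F and 78.8 and 157 CPM of WT, and 34.1 and 398 CPM in CD8 T cells of Vegfr2Y949F and 47.4 and 82.0 CPM of WT. It rested on Vegfr2Y949F set B, without which the interaction was -0.03, and it was also not called without mixed cells, without WT set A, without WT set B or with mitochondrial UMIs under 5%. Lgals3 was no longer called with doublets removed (adjusted p = 0.0625), without mixed cells, without Vegfr2Y949F set A or without WT set B. Without cells holding 3 or more UMIs of other lineages Plac8 was the 1 gene called (4.04, edgeR adjusted p = 0.00178). In that setting Plac8 did not pass the filter on low counts in the genotype fit of CD4 T cells alone. It lost its interaction call without WT set B.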

How the data were processed

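Single-cell RNA libraries were made from 4 lung suspensions. The deposited files are matrices of raw counts (UMIs per gene and cell), written by Cell Ranger 6.1.1 per the file headers. The submitters' processing notes also name Seurat 4.1.0, UMI-tools, fastp and mm10. Cells with at least 500 genes, at least 1000 UMIs and under 15% mitochondrial UMIs were kept, and the gate was applied to their counts. No doublets were removed in the main results. As an alternative, the top 8% of cells per library by Scrublet score (scanpy 1.11.5) were removed.

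For each library, the counts of the cells of a type were added up. The sums were tested with edgeR 4.0.16 (quasi-likelihood test, TMM, R 4.3.3), with Benjamini-Hochberg adjustment over all genes tested except those of the gate, at 0.05. The genotype fit used the 4 CD4 sums without covariates, and the CD4 against CD8 fit and the interaction had a block for library. DESeq2 1.42.0 was an alternative. Genes were named by rule. Between CD4 and CD8 T cells these were the 15 called genes of largest log2 fold change in each direction, with a mean of at least 50 CPM in the higher type and the same direction in every library, and the called members of the 36 lists. Between genotypes they were the called genes, the 4 most abundant tested members of each list and a fixed few (Lef1, Il7r, Foxp3 and the VEGF genes). The members and lists were chosen with earlier results of these data known. Genes outside that rule were chosen after their values were seen. Within-set values used a pseudocount of 10 CPM. Shares have exact 95% intervals and two-sided exact permutation tests over libraries. Shares of cells with a Foxp3 or Plac8 UMI were also taken after thinning each cell to 1000 UMIs. Clusters came from Leiden clustering (leidenalg 0.10.2, 1000 variable genes, 15 components, 10 neighbours, resolution 0.6). The fits were tested on simulated data. Values of 1 marker gene are not reported here. Replicates come from 2 pools per genotype, which limits precision.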

Additional observations from a re-analysis of the deposited data

Results flagged for a closer look

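In 4 of the 56 named genes tested, 1 library stood apart from the other 3 in its log2 ratio of CD4 to CD8 T cells, on CPM plus 10, where chance alone gives about 1 in 20. Sftpc was at 5.16 in WT set B, where 1 cell held 4863 of 4957 UMIs. Trat1 was at 2.29 and Klrd1 at -2.84 in WT set B, and Rgs1 was at 3.71 in WT set A, whose CD4 T cells number 11.

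The log2 ratio of Vegfr2Y949F over WT was higher in CD4 than in CD8 T cells, as tested by the interaction, for Plac8 (4.29), Lgals3 (2.26), Tyrobp (4.23), Fcer1g (4.01), Lyz2 (2.21) and S100a9 (1.81). It was lower in CD4 than in CD8 T cells for S100a6 (-1.58), Stmn1 (-1.71), Hmgb2 (-0.92), Sftpc (-4.40) and Pclaf (-5.42), all as differences of log2 ratios. With doublets removed Tyrobp and Fcer1g lost their calls (edgeR adjusted p = 0.259 and 1), and Sftpc stood at 0.95 without a call. S100a6 and Hmgb2 lost theirs there too (edgeR adjusted p = 0.356 and 0.628), whereas Lyz2, S100a9 and Pclaf kept theirs. Without mixed cells Lyz2 (0.68), S100a9 (0.04), S100a6 (-1.03), Hmgb2 (-0.42), Pclaf (-3.79) and Sftpc (-0.06) were not called. With mitochondrial UMIs under 5% Lyz2 stood at 0.22, and Lyz2, S100a9, S100a6, Hmgb2 and Fcer1g were not called. Lyz2 and Sftpc had 500.1 and 197 CPM and 52.4 and 47.2 CPM in CD4 T cells of Vegfr2Y949F, against 0 and 1078 CPM and 47.3 and 4702 CPM in those of WT. Tyrobp had 210 and 22.2 CPM in CD4 T cells of Vegfr2Y949F and 0 and 5.69 CPM of WT, and 59 of the 96 UMIs of Vegfr2Y949F set A came from 1 cell marked as a doublet. Pclaf, of dividing cells, was at 251 CPM in CD8 T cells of Vegfr2Y949F set B and at 0 to 2.28 CPM in the other CD8 sums. S100a6 had 285 and 1407 CPM in CD8 T cells of Vegfr2Y949F, against 79.0 and 80.9 CPM in those of WT.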

How the results depend on the processing

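The genotype difference in the CD4 share of kept cells ran from -0.537 to 0.998 percentage points over the settings that leave out 1 library, and was negative without Vegfr2Y949F set B (-0.21) and without WT set A (-0.537). Between genotypes the 2 calls became 39 with no filter on low counts, 4 with at least 30 UMIs in all, 0 with doublets removed, 1 without mixed cells (another gene, so neither call was kept), 1 with the set letter as a replicate block, and 0 to 61 when 1 library was left out. The lone library then left in a genotype is assumed to vary like the others. The replicate block shared 1 call with the fit without it, and deviations of same-lettered libraries had a correlation of 0.00307 over 4611 genes. With 11 CD4 T cells in WT set A, that correlation cannot decide whether the sets differ, and Hspa1a was higher in both set B libraries. The letters were not taken to pair the libraries because what they mark is not stated.

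Between CD4 and CD8 T cells the 148 calls became 67 with DESeq2, 242 with no filter, 259 with at least 30 UMIs in all, 27 with no replicate block and 56 to 148 when 1 library was left out. The interaction's 23 calls became 10 with doublets removed, 1 without mixed cells, 8 with mitochondrial UMIs under 5% and 1 to 17 when 1 library was left out, alternatives chosen after seeing the data. Sftpc (-0.22) and Cxcl2 (0.18) turned without mixed cells, and Lyz2 (-2.17) with doublets removed. The cause was not tested beyond the cells named. The 11 CD4 T cells of WT set A limit every genotype result.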
